A study of Mus musculus with 8 samples.

Results

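The 9 genes described here encode the upstream machinery of the alternative NF-kB pathway: the kinase NIK (Map3k14), the adaptors TRAF1, TRAF2 and TRAF3, the ubiquitin ligases cIAP1 (Birc2) and cIAP2 (Birc3), and the IKK subunits IKKα (Chuk), IKKβ (Ikbkb) and NEMO (Ikbkg). They were chosen by gene symbol for their known roles, and all 9 were present among the 22432 genes of the deposited table and among the 13797 genes tested. The study measured RNA in mouse regulatory T (Treg) cells, which express Foxp3 and hold other immune cells in check, and asked what loss of the alternative pathway does to their transcriptome. YFP+ cells were sorted from C57Bl/6 Foxp3-CRE-YFP mice, from a pool of spleen and lymph node cells. The WT group carried Foxp3-CRE-YFP with no floxed allele, RelB-KO cells also carried RelB F/F, and Nfkb2-KO cells also carried nfkb2 F/F. DKO cells carried both floxed alleles. Cre is driven from Foxp3, so the deletions are those of Foxp3-expressing cells. Every library came from cells cultured for 16 h on anti-CD3 at 5 µg/ml with anti-CD28 at 1 µg/ml, IL-2 at 10 ng/ml and agonist anti-OX40 at 2 µg/ml, so the genotypes were compared only in the stimulated state. Each genotype had 2 libraries. The labels do not say that these came from separate animals, so p-values measure only the spread between these libraries.

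In unstimulated cells TRAF3 links NIK to a complex of TRAF2 and the cIAPs, which tags NIK for degradation. When a TNF receptor such as OX40 is engaged, the complex is drawn to the receptor, NIK builds up and, with IKKα, drives the processing of p100, the Nfkb2 product, to p52. The p52 protein pairs with RelB, whereas unprocessed p100 holds RelB and other NF-kB subunits in the cytoplasm. IKKβ and NEMO serve mainly the classical pathway, in which IkB proteins are degraded, and Traf1 and Birc3 are widely used as NF-kB target genes.

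Several facts of the whole series bear on the values. Relb was between 10.49 and 10.84 on the deposited log2 scale in WT and Nfkb2-KO libraries and between 6.35 and 7.08 in RelB-KO and DKO libraries. Nfkb2 was between 12.31 and 12.80 in WT and RelB-KO libraries. It was at 8.75 and 8.79 in Nfkb2-KO and, somewhat higher, at 9.29 and 9.85 in DKO libraries. Each deletion could thus be seen in the libraries labelled with it. WT replicate 1 stood apart from the other 7 libraries. Its Xist was 8.17, where theirs ran from 14.61 to 15.13, and its Ddx3y was 11.60, where theirs ran from 4.25 to 4.35. Both genes are sex-linked, with the pattern of male cells in this library and of female cells in the other 7. The labels give no sex, and by these genes sex and genotype are partly mixed in comparisons with WT. For the 9 genes, each comparison with WT therefore also gives values without this library. For other genes such values are given in part. Foxp3 was between 13.95 and 14.28 in all libraries and Cd3e was between 12.61 and 12.96. None of the tested markers of Treg, B, myeloid and dendritic, or CD8 T and NK cells was called in any of the 6 contrasts in either limma fit, the smallest adjusted p being 0.114, and at most 3 of a list had an unadjusted p under 0.05 in a contrast. In bulk RNA, fewer cells of a type and less RNA per cell cannot be told apart.

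Levels are given on the deposited log2 scale, and differences are differences on that scale with the standard error of a limma fit to all 8 libraries. The threshold for a call was 0.05 on the adjusted p, by the Benjamini-Hochberg method over the 13797 genes of each contrast. The planned fit had no term for the replicate number. Libraries with the same number shifted together, so a second fit with the replicate number as a block is given beside it wherever it changed a call.

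All 9 genes were expressed in WT cells, with means from 10.61 to 12.69 on the log2 scale. Whether the deposited values are already per length is not settled, so levels are not ranked between genes.

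4 of the genes stood higher in both Nfkb2-KO libraries than in either WT library, and 0 stood lower in both. Of all 13797 genes tested, 2978 stood higher in this way. Counting both directions, 42.5% of all genes had groups that did not overlap in this comparison. The letters just upstream of their annotated starts are shown because these are the genes called with the replicate block below. Each run is the 250 bases before the first RefSeq start, on the gene's strand, in build GRCm38.p6, with any match to the NF-kB consensus in capitals. The window of Birc2 is chr9:7837058-7837307 (minus strand), that of Traf1 chr2:34961773-34962022 (minus strand), that of Traf2 chr2:25546941-25547190 (minus strand) and that of Traf3 chr12:111166120-111166369 (plus strand).
Birc2: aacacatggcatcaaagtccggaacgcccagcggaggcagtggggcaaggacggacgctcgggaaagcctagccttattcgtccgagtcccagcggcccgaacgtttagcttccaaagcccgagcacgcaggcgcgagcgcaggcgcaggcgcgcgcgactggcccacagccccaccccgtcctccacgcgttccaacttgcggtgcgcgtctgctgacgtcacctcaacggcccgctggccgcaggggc
Traf1: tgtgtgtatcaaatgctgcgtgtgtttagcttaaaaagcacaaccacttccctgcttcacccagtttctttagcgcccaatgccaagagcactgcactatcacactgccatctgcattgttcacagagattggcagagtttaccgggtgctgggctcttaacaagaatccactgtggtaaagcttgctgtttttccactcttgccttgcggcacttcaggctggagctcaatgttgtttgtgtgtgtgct
Traf2: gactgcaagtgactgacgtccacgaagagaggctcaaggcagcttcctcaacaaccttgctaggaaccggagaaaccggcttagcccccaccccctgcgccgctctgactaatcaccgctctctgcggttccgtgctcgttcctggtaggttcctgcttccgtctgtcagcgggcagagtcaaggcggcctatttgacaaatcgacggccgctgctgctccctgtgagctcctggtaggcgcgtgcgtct
Traf3: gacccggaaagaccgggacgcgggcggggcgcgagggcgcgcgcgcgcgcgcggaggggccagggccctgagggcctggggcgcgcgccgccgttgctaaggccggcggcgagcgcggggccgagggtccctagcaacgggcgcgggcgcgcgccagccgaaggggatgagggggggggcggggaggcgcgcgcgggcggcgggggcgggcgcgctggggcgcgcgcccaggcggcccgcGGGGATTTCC
A 10-letter NF-kB consensus was searched on both strands of each window. Among the 8 members with an entry in the promoter table (all but Ikbkb), only Traf3 held a match, GGGGATTTCC on the plus strand, directly before the start. Of all 27025 genes in the table, 4.46% held a match in at least one such window. The windows differ in base composition, from 48.0% G and C in Traf1 to 85.2% in Traf3, with 68.4% in Birc2 and 60.8% in Traf2. A match is a description of the letters and not a site, and its absence says only that these letters are not in this window.

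**Figure D1:**
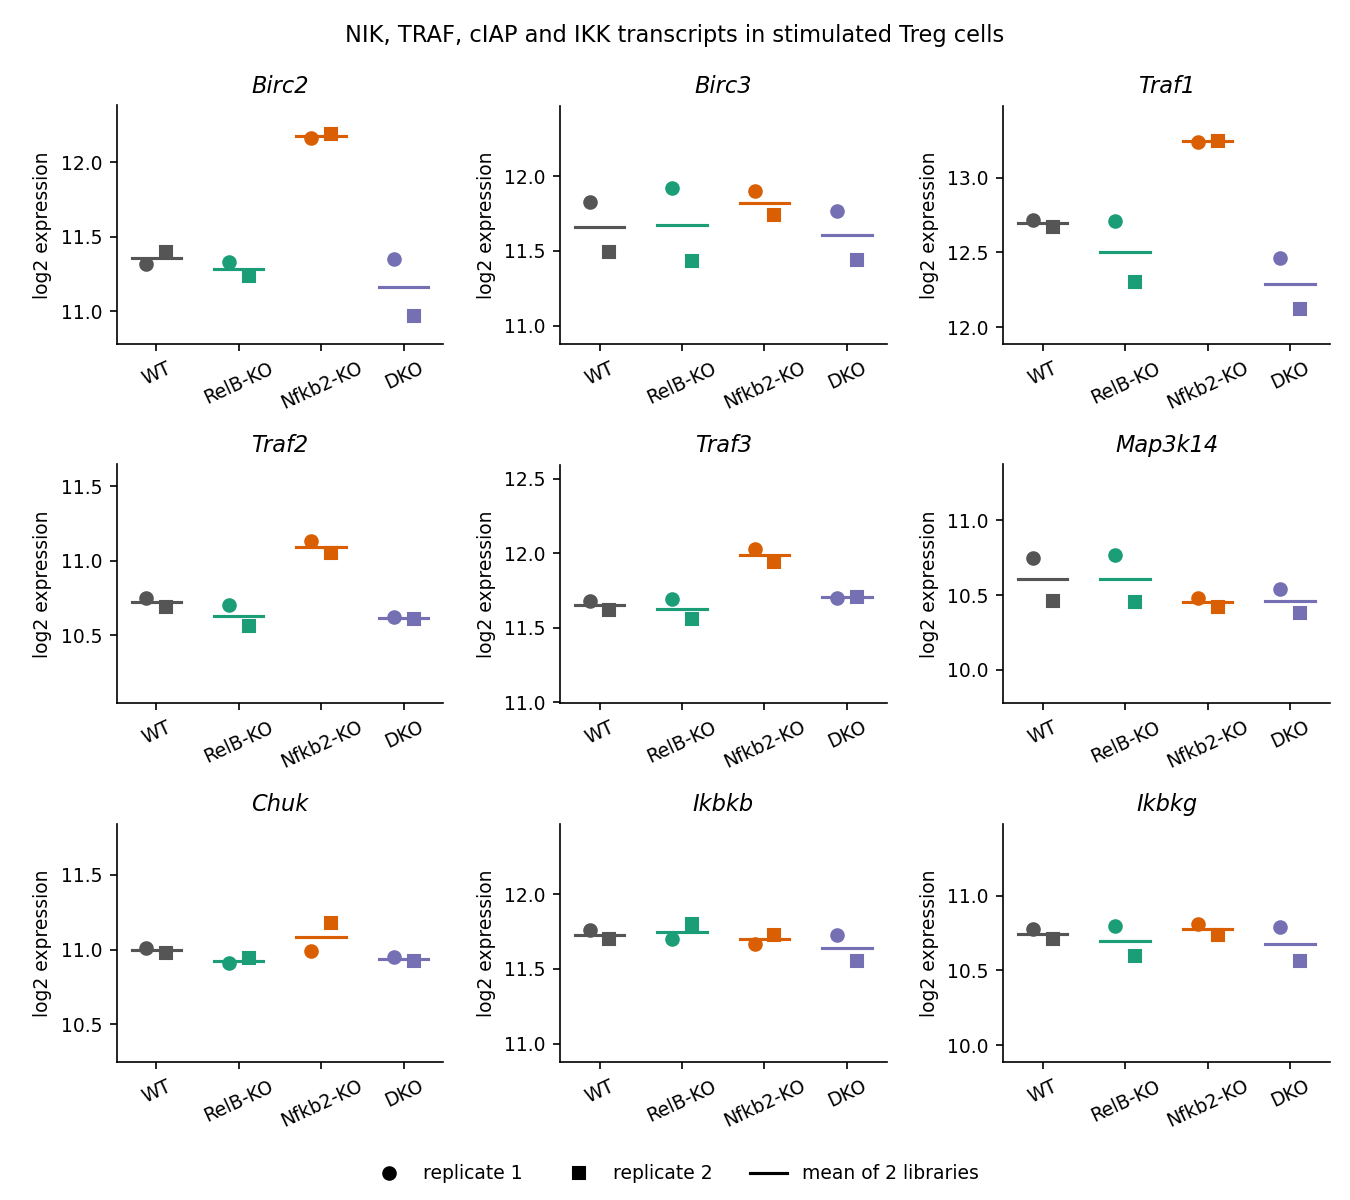
Deposited log2 expression of the 9 genes in each library, with circles for replicate 1, squares for replicate 2 and a line at the mean of the 2 libraries of a genotype. All panels span the same number of log2 units. Both Nfkb2-KO libraries lie above all other libraries for Birc2, Traf1, Traf2 and Traf3, for example at 12.16 and 12.19 against 10.97 to 11.40 for Birc2. The share of all tested genes with this order was not counted.

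Loss of Nfkb2 alone went with higher transcripts of cIAP1 and all 3 TRAFs. With the replicate block, Birc2, Traf1, Traf2 and Traf3 rose in Nfkb2-KO against WT, by 1.27 to 1.76 fold, and none of the 9 fell. Without the block none of the 9 passed in limma, 4 of 9 had an unadjusted p under 0.05 and the adjusted p of Birc2 was 0.0904. Of all 13797 genes tested, 1472 had an unadjusted limma p under 0.05 in that fit. The other 5 genes, for NIK, cIAP2 and the IKK subunits, passed in neither fit. The 4 calls of 9 with the block compare with 2.91% of all tested genes called, and the 0 of 9 without it with 0.341%. In the authors' deposited table the same 4 members had an adjusted p under 0.05 and the other 5 did not, against 6.22% of the genes for which it gives one.

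Birc2, the cIAP1 ligase that tags NIK, was at 11.32 and 11.40 in the WT libraries and at 12.16 and 12.19 in the Nfkb2-KO libraries. The groups did not overlap, and replicates 1 and 2 gave differences of 0.84 and 0.79. The difference was 0.81 ± 0.11 (SE, n = 2 per genotype) with the block, with a limma adjusted p of 0.0069. It was the widest change among the 9 genes in this comparison. The authors' deposited table gives Birc2 a log2 fold change of 0.83.

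Traf1, a TRAF without the RING domain of the others and a partner of TRAF2, was at 12.72 and 12.67 in WT and at 13.24 and 13.25 in Nfkb2-KO. Its difference was 0.55 ± 0.11 with the block (limma adjusted p = 0.0355). Traf2, the adaptor that brings in the cIAPs, was at 10.75 and 10.69 in WT and at 11.13 and 11.05 in Nfkb2-KO, and its difference was 0.37 ± 0.07 (limma adjusted p = 0.0299). Neither gene had a WT library within the range of the Nfkb2-KO libraries.

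Traf3, which binds NIK, was at 11.68 and 11.62 in WT and at 12.03 and 11.94 in Nfkb2-KO. Its difference was 0.34 ± 0.07 with the block (limma adjusted p = 0.0402). The groups did not overlap, and both replicate pairs moved up, by 0.36 and 0.32. Without the block the adjusted p was 0.302 for Traf1, 0.18 for Traf2 and 0.22 for Traf3.

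Birc3, the cIAP2 gene beside Birc2 on the chromosome, was not called. It was at 11.83 and 11.49 in WT and at 11.90 and 11.74 in Nfkb2-KO, which overlap. The difference was 0.16 ± 0.09 with the block, with a 95% interval from -0.0357 to 0.358, and replicates 1 and 2 gave 0.07 and 0.25. It had the direction of Birc2 at a smaller size. Leaving out WT replicate 1 gave 0.33 without the block and 0.17 with it, and Birc3 was called in neither limma fit. In every genotype replicate 1 of Birc3 was above replicate 2, by 0.16 to 0.49, and the mean shift of 0.33 was the largest among the 9 genes. Birc2 and Birc3 are paralogs, and how reads that fit both genes were counted is not given in the sources used here.

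Map3k14, the gene of NIK, was at 10.75 and 10.46 in WT and at 10.48 and 10.42 in Nfkb2-KO. Its difference was -0.16 ± 0.08 with the block, with a 95% interval from -0.349 to 0.0292. In both replicates the Nfkb2-KO library was the lower, by 0.27 and 0.05, and the WT and Nfkb2-KO libraries overlapped. Without WT replicate 1 the difference was -0.11 with the block and -0.017 without it. Its size thus rests on that library in the fit without the block, and less so with it. Of its exonic bases, 2.1% are shared with 1700028N14Rik on the same strand.

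None of the 3 IKK genes passed. Chuk (IKKα, the kinase that acts on p100) was at 11.01 and 10.98 in WT and 10.99 and 11.18 in Nfkb2-KO, a difference of 0.09 with a 95% interval from -0.0878 to 0.268 with the block. Ikbkb was at 11.76 and 11.70 in WT and 11.67 and 11.73 in Nfkb2-KO, with an interval from -0.215 to 0.165. Ikbkg was at 10.78 and 10.71 in WT and 10.81 and 10.74 in Nfkb2-KO, with an interval from -0.144 to 0.195. These intervals leave room for small changes, and each excludes one as large as that measured for Birc2. Ikbkg lies on the X chromosome and shares 5.2% of its exonic bases with G6pdx on the opposite strand. Without WT replicate 1 its Nfkb2-KO difference was 0.06 without the block and -0.024 with it, and those of Chuk and Ikbkb were 0.13 and 0.0039 with the block.

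The 4 TRAF and cIAP1 calls had different standing when single libraries were left out of the fit with the block. Birc2 stayed called in 8 of 8 such fits, with limma adjusted p from 0.0067 to 0.0487. Without WT replicate 1 its difference was 0.70 (limma adjusted p = 0.0471), while Traf1, Traf2 and Traf3 had adjusted p of 0.135, 0.106 and 0.123. Leaving out any one of the WT or Nfkb2-KO libraries left 1 of the 4 called, and leaving out a RelB-KO or DKO library left 3. Traf2 was called in 4 of the 8 fits, and Traf1 and Traf3 in 2 each.

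**Figure D2:**
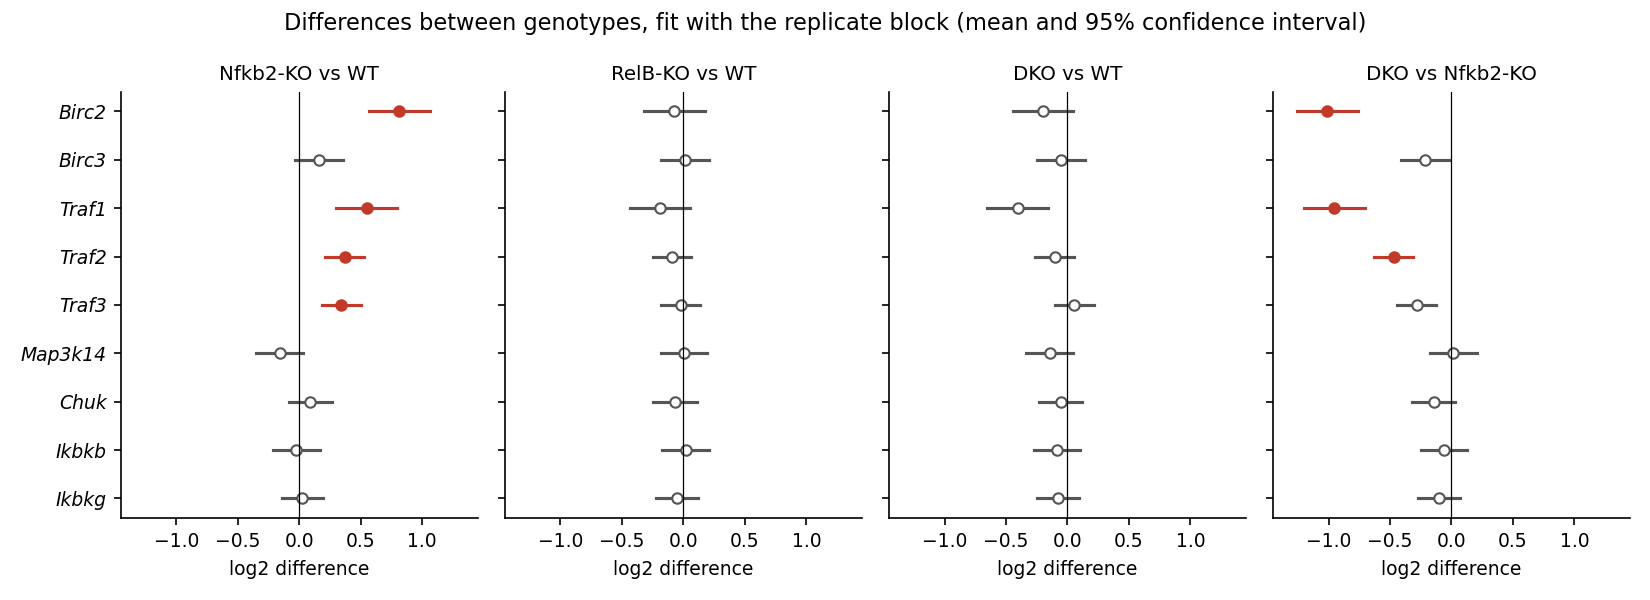
Log2 differences of the 9 genes with 95% confidence intervals in 4 comparisons, from the fit with the replicate block, with filled red points for genes called at an adjusted p under 0.05. Birc2, Traf1, Traf2 and Traf3 are called in Nfkb2-KO against WT. Birc2, Traf1 and Traf2 are called in DKO against Nfkb2-KO, and no gene is called in the other 2 comparisons.

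Loss of Relb alone moved none of the 9 genes past the threshold. In RelB-KO against WT the differences ran from -0.19 for Traf1 to 0.02 for Ikbkb, and 0 of 9 were called in either fit, against 0.00725% of all genes without the block and 0.0145% with it. At an unadjusted p under 0.05 the count was also 0 of 9, beside 171 of 13797 genes without the block and 432 with it. Birc2 was at 11.33 and 11.24 in RelB-KO, and its interval with the block ran from -0.322 to 0.172. Traf1 was at 12.71 and 12.30, with replicate 1 at the WT level and replicate 2 lower by 0.37. Without WT replicate 1, 0 of 9 were called in either limma fit, and with the block the differences ran from -0.29 for Traf1 to 0.055 for Map3k14. The authors' deposited table also has 0 of the 9 called for this comparison, against 0.119% of its genes.

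When Relb was lost together with Nfkb2, the higher levels seen without Nfkb2 alone were not there. These genotypes differed in Nfkb2 RNA as well as Relb. Nfkb2 was 0.80 higher in DKO than in Nfkb2-KO, called with the block but not without it (limma adjusted p = 0.184). Whether this bears on the 9 genes was not tested. Birc2 was at 11.35 and 10.97 in DKO cells, Traf1 at 12.46 and 12.12, Traf2 at 10.62 and 10.61, and Traf3 at 11.70 and 11.71. All 8 of these values lay below both Nfkb2-KO values of the same gene. Against Nfkb2-KO, Birc2 fell by 1.01 ± 0.13 (SE, n = 2 per genotype) on the log2 scale without the block (limma adjusted p = 0.0298), the one call among the 9 genes in the planned fit. With the block its adjusted p was 0.00148, and Traf1 fell by 0.95 ± 0.11 (limma adjusted p = 0.00208) and Traf2 fell by 0.47 ± 0.07 (limma adjusted p = 0.00631). Traf3 differed by -0.28 ± 0.07 and missed the threshold with the block (limma adjusted p = 0.0553).

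Birc2 and Traf1 in DKO cells were thus at 0.496 and 0.516 times their Nfkb2-KO level. Replicates 1 and 2 gave Birc2 differences of -0.80 and -1.22 and Traf1 differences of -0.78 and -1.13, so both pairs moved the same way. The 1 call of 9 without the block compares with 0.768% of all genes called, and the 3 of 9 with it with 5.02%. Birc2 stayed called in 8 of 8 fits with the block that left out a library, Traf1 in 7 of 8 and Traf2 in 5 of 8. The Traf1 call was lost without DKO replicate 2 (limma adjusted p = 0.0518). Without the block, the Birc2 call held only without DKO replicate 1. It was lost without any one of the other 7 libraries, and without WT replicate 1 the adjusted p was 0.0747.

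The remaining 5 genes showed no call between DKO and Nfkb2-KO. Birc3 was at 11.77 and 11.44 in DKO cells, and its difference was -0.21 with a 95% interval from -0.411 to -0.0173 with the block (limma adjusted p = 0.256). Chuk was at 10.95 and 10.92, below both Nfkb2-KO libraries, with a difference of -0.15 (limma adjusted p = 0.418 with the block). Map3k14, Ikbkb and Ikbkg had differences of 0.01, -0.06 and -0.10, and their libraries overlapped between the genotypes.

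Against WT, none of the 9 genes changed past the threshold in DKO cells in either limma fit, and 1 of 9, Traf1, had an unadjusted p under 0.05. This compares with calls for 0.0145% of all genes without the block and 0.0652% with it. At the unadjusted threshold it was 715 of 13797 genes without the block and 1773 with it. The differences were below 0 for 8 of the 9 genes. Traf1 had the widest, at -0.40 ± 0.11 with the block (limma adjusted p = 0.245), and both DKO libraries lay below both WT libraries. In the authors' deposited table Traf1 has a log2 fold change of -0.41 and an adjusted p of 0.0583 in this comparison, where 1.23% of genes were called and none of the 9 was. Birc2 differed by -0.20, with replicate 1 at 0.04 and replicate 2 at -0.43. Traf3 was the one gene above its WT mean, by 0.06. Without WT replicate 1, 0 of 9 were called in either limma fit, and Traf1 differed by -0.38 without the block and by -0.50 with it. Birc2 then differed by -0.24 without the block and by -0.31 with it, and Map3k14, at -0.15 with all libraries, by -0.0019 and -0.095.

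Between DKO and RelB-KO cells none of the 9 genes was called in either limma fit, against 0.00725% of all genes without the block and 0.0145% with it. An unadjusted p under 0.05 was found for 0 of 9, beside 398 of 13797 genes without the block and 1216 with it. The differences ran from -0.22 for Traf1 to 0.08 for Traf3. With the block the 95% interval of the Birc2 difference ran from -0.37 to 0.124. The comparisons above share libraries, so they are not independent of one another.

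Whether loss of Relb acted differently in cells with and without Nfkb2 was tested as an interaction, the DKO minus Nfkb2-KO difference less the RelB-KO minus WT difference. For Birc2 it was -0.94 ± 0.15 with the block (limma adjusted p = 0.0451), and the single differences were -1.01 and -0.07. Without the block its adjusted p was 0.44. The 1 call of 9 with the block compares with 0.471% of all genes, and the 0 of 9 without it with 0.00725%. Without the block 3 of 9 had an unadjusted p under 0.05, beside 614 of 13797 genes. Traf1 had -0.76 ± 0.15 and missed the threshold with the block (limma adjusted p = 0.089), as did Traf2 at -0.38 (limma adjusted p = 0.194) and Traf3 at -0.26 (limma adjusted p = 0.47). The Birc2 interaction was called in 2 of 8 fits with the block that left out a library, and without WT replicate 1 it was -0.82 (limma adjusted p = 0.131).

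Placed in order of their mean levels, Birc2 ran from Nfkb2-KO at 12.17 ± 0.02 (SD, n = 2) through WT at 11.36 ± 0.06 and RelB-KO at 11.28 ± 0.07 to DKO at 11.16 ± 0.27. Only at the first step did the libraries of neighbouring genotypes not overlap. Traf1 had the same order, with 13.24 ± 0.01 in Nfkb2-KO, 12.69 ± 0.03 in WT, 12.50 ± 0.28 in RelB-KO and 12.29 ± 0.24 in DKO. Again only the first step was without overlap. Traf2 ran from 11.09 ± 0.05 in Nfkb2-KO through 10.72 ± 0.04 in WT and 10.63 ± 0.10 in RelB-KO to 10.62 in DKO, where the 2 libraries differed by 0.01. Traf3 ran from 11.99 ± 0.07 in Nfkb2-KO through 11.70 ± 0.01 in DKO and 11.65 ± 0.04 in WT to 11.63 ± 0.09 in RelB-KO. Below Nfkb2-KO, neighbouring genotypes overlapped for Traf2, while the DKO libraries of Traf3, at 11.70 and 11.71, lay just above both WT libraries. In each of the 4 genes the Nfkb2-KO libraries were the highest of the 8. How many of all tested genes had this order was not counted.

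Over all 9 genes, the median difference in Nfkb2-KO against WT was 0.16, beside 0.00057 over all tested genes, and 7 of the 9 were above 0. In DKO against Nfkb2-KO it was -0.21, beside 0.00046, with 1 of 9 above 0. Groups did not overlap for 4 of the 9 genes in the first comparison, all with Nfkb2-KO higher. There 42.5% of all genes had groups that did not overlap in either direction, and 2978 of 13797 had Nfkb2-KO higher. In DKO against Nfkb2-KO groups did not overlap for 5 of the 9 genes, all with DKO lower. This compares with 35.1% of all genes in either direction and 2454 of 13797 with DKO lower. In DKO against WT, Traf1, Traf2 and Chuk were lower and Traf3 higher without overlap, against 34.1% of all genes. Chuk in RelB-KO against WT, which was lower, and Traf3 in DKO against RelB-KO, which was higher, were the single such genes, against 20.6% and 27.5% of all genes.

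Birc2 (chr9:7818227-7837064, minus strand, mm10) and Birc3 (chr9:7848699-7873186, minus strand) lie side by side, so the genes around them were looked up after the Birc2 values had been seen. The pattern of Birc2 was followed closely by Tmem123, whose start lies 73.0 kb away on the opposite strand. Birc3, whose start lies 36.1 kb away, was called in no comparison. Its differences from WT had the direction of Birc2 at a smaller size in Nfkb2-KO and DKO. In RelB-KO the difference was 0.01 for Birc3 and -0.07 for Birc2. Tmem123, which encodes a cell-surface protein, was at 13.09 and 13.02 in WT, 13.77 and 13.68 in Nfkb2-KO, 13.11 and 12.88 in RelB-KO and 13.13 and 12.71 in DKO. Both Nfkb2-KO libraries were above the other 6. The difference from WT was 0.67 (limma adjusted p = 0.00914 with the block and 0.213 without). Its value without WT replicate 1 was 0.58 with the block, and the call was lost (limma adjusted p = 0.0596). The difference of DKO from Nfkb2-KO was -0.80 (limma adjusted p = 0.00265 with the block and 0.0933 without). Yap1, 167.5 kb away, had a mean of 1.92 in WT and 1.94 in Nfkb2-KO.

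**Figure D3:**
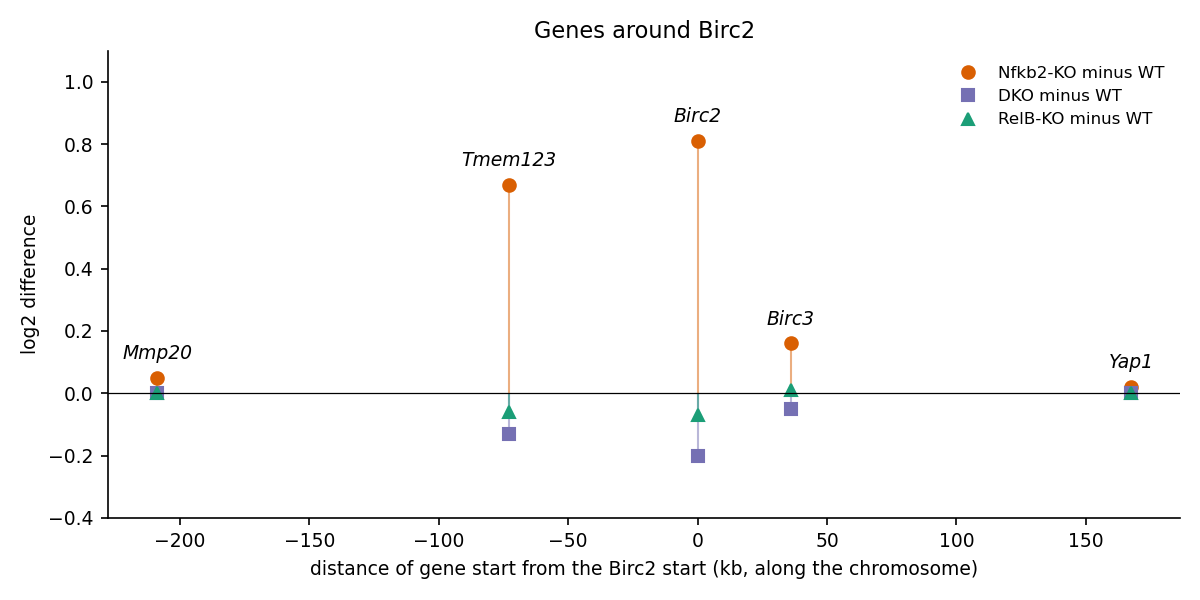
Log2 difference from WT of the genes of the table whose starts lie near that of Birc2, plotted against the distance of the starts in kb, with circles for Nfkb2-KO, squares for DKO and triangles for RelB-KO. Birc2 at 0.81 and Tmem123 at 0.67 stand above the rest in Nfkb2-KO, while Birc3 is at 0.16 and Mmp20 and Yap1, at the low end of the scale, are near 0.

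The other members lie apart from Birc2 and from each other. Traf1 (chr2:34941750-34961772) and Traf2 (chr2:25517982-25546940) share chromosome 2, Traf3 (chr12:111166370-111267153) is on chromosome 12 and Map3k14 (chr11:103219762-103267472) on chromosome 11. Chuk (chr19:44073335-44107480), Ikbkb (chr8:22659212-22706589) and Ikbkg (chrX:74393290-74453854) are on 3 further chromosomes.

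Likeness of pattern was measured as the Pearson coefficient over the 8 libraries, with values centred on the mean of their replicate number, and the 3 most alike genes outside the 9 are given as a description. Birc3 reached 0.80 with Birc2 on this measure. For Birc2 they were Tmem123 at 0.999, Fsd1l at 0.995 and Hsf2 at 0.993. For Traf1 they were Rnf32 at 0.991, Il18r1 at 0.987 and Rnft2 at 0.986, and for Traf2 Acvr1 at 0.995, Igsf3 at 0.994 and Tnip1 at 0.993. For Traf3 they were Camsap1 at 0.994, Trip10 at 0.992 and Bhlhb9 at 0.991. Every one of these genes had a positive Nfkb2-KO minus WT difference, the smallest being that of Rnft2 at 0.10. The positive sign follows from the choice, since the genes were picked for likeness to members highest in Nfkb2-KO. The 8 points are 4 genotypes with 2 libraries each, so a single high genotype can set such a coefficient.

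Other genes of the pathway were read in 7 lists chosen by role. Of the 66 tested genes in these lists, with Relb and Nfkb2 left out, 4 were called in Nfkb2-KO against WT with the block (6.06%, against 2.91% of all genes) and 7 in DKO against Nfkb2-KO (10.6%, against 5.02%). Without the block it was 1 in each comparison (1.52%, against 0.341% and 0.768%), which was Tnfrsf11a both times. Among 14 tested receptors that recruit TRAFs, 1 rose and 1 fell in Nfkb2-KO against WT with the block. Tnfrsf11a, which encodes RANK, had a difference of 1.01 ± 0.11 (limma adjusted p = 0.00215, and 0.0448 without the block). With WT replicate 1 left out it was 0.95 with the block (limma adjusted p = 0.019) and 0.91 without it, where the call was lost (limma adjusted p = 0.281). It was at 5.14 and 5.34 in WT and at 6.09 and 6.41 in Nfkb2-KO, and at 5.17 and 5.23 in DKO, where it fell by 1.05 against Nfkb2-KO (limma adjusted p = 0.00109 with the block and 0.0274 without, or 0.0563 without the block and without WT replicate 1). Cd27, another receptor of the family, fell by 0.45 ± 0.08 with the block (limma adjusted p = 0.0282) and was not called without it (0.261). The Cd27 call was also lost without WT replicate 1, where the difference was -0.50 with the block (limma adjusted p = 0.0724). In the interaction described for Birc2, 1 of the 14 receptors was called lower with the block (limma adjusted p = 0.0356) and 0 without it.

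Of 9 tested IkB and feedback inhibitor genes, 1 rose in Nfkb2-KO against WT with the block and 0 without it. This was Nfkbie, the gene of IkBε, with 0.62 ± 0.10 (limma adjusted p = 0.013 with the block and 0.192 without). When WT replicate 1 was left out it was 0.61 with the block and not called (limma adjusted p = 0.0665). With the block Nfkbie fell by 0.73 in DKO against Nfkb2-KO (limma adjusted p = 0.00442), and without it this call was lost (0.0884). Of 11 other TRAF and adaptor genes 0 were called in Nfkb2-KO against WT in either limma fit. With the block 3 of the 11 had an unadjusted p under 0.05, beside 2528 of 13797 genes. The smallest p there were those of Traf6 at 0.29 and Traf5 at -0.44 (limma adjusted p of 0.0713 and 0.0754 with the block). Without WT replicate 1, in the fit without the block, the Traf6 difference was 0.37 and that of Traf5 was -0.12. With the block Tank, a TRAF-binding regulator, rose by 0.37 in DKO against Nfkb2-KO (limma adjusted p = 0.0307), and without it this call was lost (0.182).

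Among 9 tested genes of other IAPs and of proteins that bind them, the calls came with the block only. Htra2, a mitochondrial protease that binds IAPs and is not itself one, had 0.40 in Nfkb2-KO against WT (limma adjusted p = 0.0384 with the block and 0.711 without). Leaving out WT replicate 1 gave 0.46 with the block, and the call was lost (limma adjusted p = 0.0769). Birc5, the mitotic protein survivin, had 0.57 in DKO against Nfkb2-KO (limma adjusted p = 0.0176 with the block and 0.591 without). Of 11 genes of IKK relatives, the TAK1 complex and LUBAC, 0 were called in any of the 6 contrasts in either limma fit, and at most 1 had an unadjusted p under 0.05 in any of them. Of 9 genes of NIK turnover and p100 processing, 1 was called in DKO against Nfkb2-KO with the block, Otud7b, a deubiquitinase of TRAF3, at -0.48 (limma adjusted p = 0.00752 with the block and 0.163 without). In the same comparison Ltbr, the lymphotoxin-β receptor, had 0.32 (limma adjusted p = 0.0184 with the block and 0.0703 without). Rel, an NF-kB subunit, had -0.52 (limma adjusted p = 0.0181 with the block and 0.522 without).

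**Figure D4:**
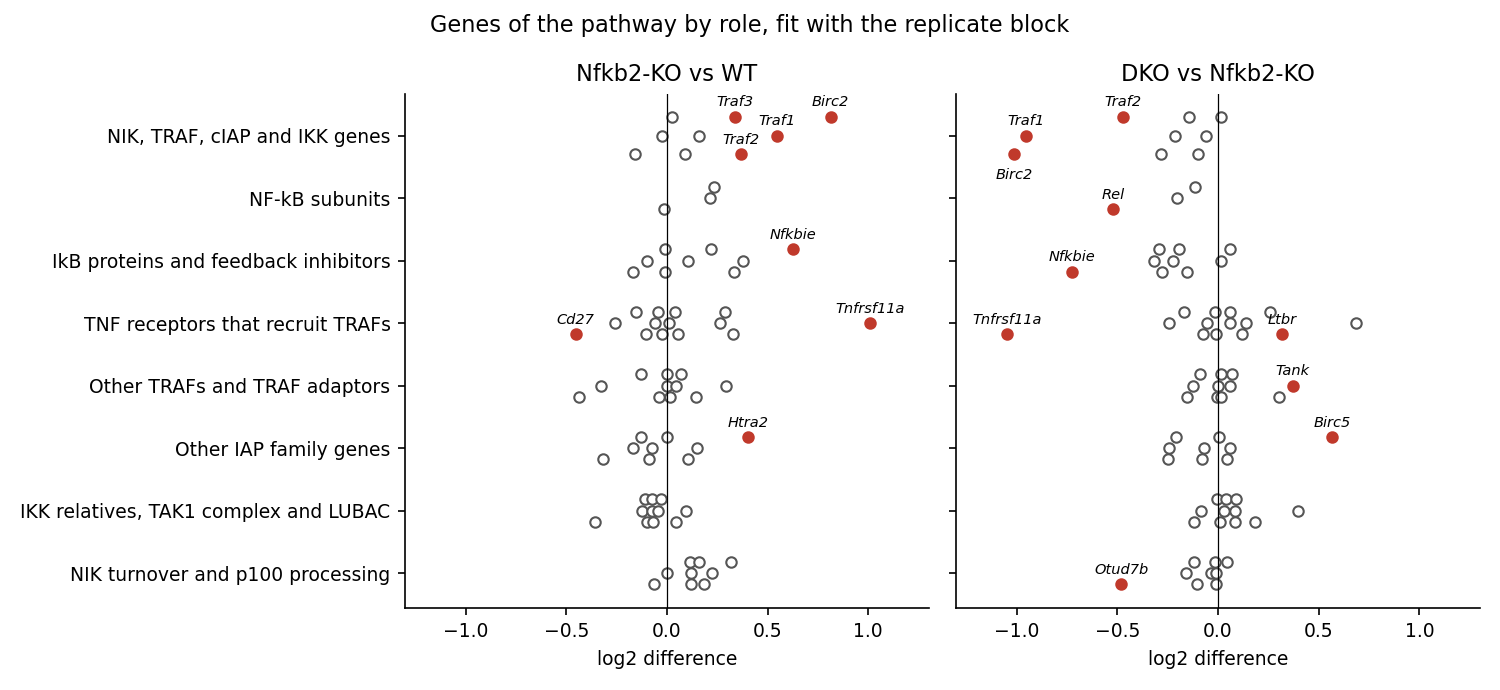
Log2 differences of the 9 genes and of 7 lists of other pathway genes, from the fit with the replicate block, each point 1 gene and filled red points those called at an adjusted p under 0.05. The deleted genes Relb and Nfkb2 are left out. The 9 genes hold 4 calls in Nfkb2-KO against WT, Birc2, Traf1, Traf2 and Traf3, and the receptor Tnfrsf11a has the widest difference in that comparison, at 1.01.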

How the data were processed

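RNA was sequenced from 8 libraries of sorted, stimulated mouse Treg cells, with 2 in each of 4 genotypes. Per the submitters' processing notes, STAR and DESeq2 1.10.1 were used with the mm10 build, with no roles given, and the counting program and strand setting are not given in the sources used here. Per the file headers, the deposited values are log2 RPKM, batch corrected. Un-logged they sum to 18.16 to 19.71 M per library. The median SD over the 8 libraries was 0.0033 for the 2387 genes with a mean at or below 0 and 0.12 for the 4503 genes above 10, so weak genes vary least, as after shrinkage, and their fold changes may be understated. No counts were used, so depth is unknown and counting error could not be computed. The authors also deposited log2 fold changes with p-values, raw and adjusted, for the 3 comparisons with WT, from a test not named in the header.

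The 6247 genes at 0 in all libraries and 1 gene with a blank cell were left out, and of the rest the 13797 whose un-logged values average 1 or more were tested. limma 3.58.1 in R 4.3.3, with moderated variances and a trend on expression, was fitted to the deposited log2 values with the 4 genotypes and 6 contrasts, leaving 4 residual degrees of freedom, or 3 with the replicate block. The fit was run on simulated data with planted Nfkb2-KO differences, to check that their mean size was returned. That check does not test the calls given here. Replicate numbers were checked for pairing: the replicate 1 minus replicate 2 differences correlated across the 13797 genes at 0.812 to 0.887 in all pairs of genotypes, so the replicate shift is still in the batch-corrected values and numbers were taken as pairing the libraries. This comes from the data, not from a statement in the labels.

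The 9 members, the pathway lists and the tests were chosen with earlier results of these data known. Named genes are the 9 members, list genes called in either fit or else those with the smallest p in their list, and the 3 genes most alike in pattern to each called member. Neighbours of Birc2, and the deletion and sex-linked checks, stand outside this rule. Gene coordinates and exonic overlaps come from GENCODE M21 on mm10, and promoter sequences from RefSeq on GRCm38.p6, which held 8 of the 9 members. Alternatives were the replicate block, other filters, a pseudocount of 1, quantile normalization, a fit of 2 genotypes, no variance trend and leaving out each library. Values without WT replicate 1 for genes outside the 9 were added after seeing the data.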

Additional observations from a re-analysis of the deposited data

Results flagged for a closer look

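Birc2 differed between backgrounds in what went with loss of Relb. The difference was -1.01 in cells without Nfkb2 and -0.07 in cells with it, and the interaction was -0.94 with the replicate block (limma adjusted p = 0.0451). Without the block the adjusted p was 0.44, and the call held in 2 of 8 fits that left out a library, without WT replicate 2 and without DKO replicate 1.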

How the results depend on the processing

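The replicate block moved the called members from 0 to 4 in Nfkb2-KO against WT, from 1 to 3 in DKO against Nfkb2-KO and from 0 to 1 in the interaction, and it changed no other call. The single call without the block, Birc2 in DKO against Nfkb2-KO, became 0 calls in a fit of those 2 genotypes only (limma adjusted p = 0.169) and 0 calls with no variance trend (limma adjusted p = 0.0536). The cause was not tested. No filter, a stricter filter, a pseudocount and quantile normalization left every count of called members as it was, and of the 54 member differences they turned 1, Ikbkg in Nfkb2-KO against WT, which became -0.011 under quantile normalization. Leaving out each library in turn gave 0 to 1 calls in DKO against Nfkb2-KO. In the fit with the block, leaving out a library, an alternative chosen after seeing the data, gave 1 to 3 calls in Nfkb2-KO against WT, 2 to 3 in DKO against Nfkb2-KO and 0 to 1 in the interaction. A genotype left with 1 library was assumed to vary like the others. Of the 54 differences without the block, 27 changed sign when some library was left out, and none of these was called. In DKO against RelB-KO the ranges without 1 library were Birc2 -0.32 to 0.070, Birc3 -0.31 to 0.18, Chuk -0.0049 to 0.030, Ikbkg -0.14 to 0.095, Map3k14 -0.31 to 0.015 and Traf2 -0.079 to 0.056. In DKO against WT the ranges without 1 library were Birc3 -0.22 to 0.12, Ikbkb -0.17 to 0.0017 and Ikbkg -0.19 to 0.043. In Nfkb2-KO against WT the ranges without 1 library were Birc3 -0.0074 to 0.33, Chuk -0.0063 to 0.19, Ikbkb -0.056 to 0.0062 and Ikbkg -0.011 to 0.061. In RelB-KO against WT the ranges without 1 library were Birc3 -0.23 to 0.26, Ikbkb -0.031 to 0.072, Ikbkg -0.15 to 0.048, Map3k14 -0.16 to 0.17, Traf1 -0.39 to 0.012 and Traf3 -0.088 to 0.045. In the interaction the ranges without 1 library were Birc3 -0.48 to 0.017, Chuk -0.17 to 0.019, Ikbkb -0.17 to 0.0062, Ikbkg -0.17 to 0.069 and Map3k14 -0.15 to 0.17. In DKO against Nfkb2-KO the ranges without 1 library were Ikbkb -0.15 to 0.026, Ikbkg -0.22 to 0.018 and Map3k14 -0.069 to 0.10. Depth is unknown, and 2 libraries per genotype limit what could be called.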
